A study of Mus musculus with 28 samples.

Results

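Promoter Capture Hi-C (PCHi-C) lists of 4 time points were searched for contacts in which a captured promoter fragment (bait) met a fragment of the same chromosome that was no bait in any list, with more than 1 Mb between the midpoints of the fragments. The rule used only position, and it found 4359 different pairs among the 231721 bait to non-bait pairs on one chromosome. These pairs lay on 1253 of 18175 baits and reached 3463 far fragments. The 0h list held 2146 of them, the 1h list 1778, the 12h list 920 and the 48h list 1444. They are called distant pairs here, and bait to non-bait pairs of up to 1 Mb are called near pairs.

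The cells were C10, 1 mouse Pre-B cell line derived from HAFTL cells, and all groups carried the CEBPalpha-ER transgene, a rat C/EBPα fused to the hormone-binding part of the estrogen receptor. The 0h cells were not induced, and the cells of 1h, 12h and 48h were treated with 100 nM β-estradiol, 10 nM IL-3 and CSF-1, which turns them into macrophages. RNA-seq had 3 biological replicates at each time point, and PCHi-C had 2, which the authors merged before they called interactions, so each time point gave 1 list and no replicate error. The design asks which promoter contacts are present before induction, which come or go, and how the genes at their ends are expressed.

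In the nucleus, chromatin is folded so that promoters can meet enhancers and other elements far away along the DNA. Cohesin extrudes loops of chromatin until it meets the protein CTCF, whose binding sites at loop ends mostly point toward each other, and most promoter contacts lie within one topologically associating domain. Contacts over longer distances join domains, as between clusters of active genes or between silent regions held by Polycomb or by heterochromatin. C/EBPα is the transcription factor that drives the myeloid fate and can turn B lineage cells into macrophages.

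The far fragments that were listed at all 4 time points carry the most lasting distant contacts, so the sequence around the core consensus of CTCF is shown for 8 of them. Each window holds the core in capitals with 30 bases on each side, read from GRCm38 on the strand of the match, and is named by the gene on the bait of the pair. In 7 of the 8 windows the core points toward the bait, and in that of 9230019H11Rik it points away.
Bcl6 far fragment, chr16:25064720-25064791 (-): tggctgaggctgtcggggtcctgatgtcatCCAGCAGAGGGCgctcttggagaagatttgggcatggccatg
Bcl6 far fragment, chr16:25263922-25263993 (-): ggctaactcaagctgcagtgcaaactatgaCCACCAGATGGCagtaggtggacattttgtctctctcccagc
Bcl6 far fragment, chr16:25349780-25349851 (-): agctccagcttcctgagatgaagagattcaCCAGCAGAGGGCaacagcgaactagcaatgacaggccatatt
Fat4 far fragment, chr3:40391799-40391870 (-): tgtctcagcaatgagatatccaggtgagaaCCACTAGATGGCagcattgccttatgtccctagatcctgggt
Igfbp3 far fragment, chr11:8302974-8303045 (-): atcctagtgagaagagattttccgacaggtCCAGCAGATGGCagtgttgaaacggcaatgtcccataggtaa
Rpl37 far fragment, chr15:4056755-4056826 (+): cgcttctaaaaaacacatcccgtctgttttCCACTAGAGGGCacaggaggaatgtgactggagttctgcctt
Mad2l1 far fragment, chr6:65510445-65510516 (+): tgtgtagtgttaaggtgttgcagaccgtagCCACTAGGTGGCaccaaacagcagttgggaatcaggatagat
9230019H11Rik far fragment, chr10:7462163-7462234 (+): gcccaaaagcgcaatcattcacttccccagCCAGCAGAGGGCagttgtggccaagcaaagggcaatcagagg

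The promoters of 4 baits that lead the results are shown next, as the 250 bases before the start of the gene on its own strand, from RefSeq with the build GRCm38.p6, with the 50 bases nearest to the start in capitals. Chordc1 lost most of its distant pairs, Fam120a had the most, Igfbp3 had distant pairs and no near ones, and Tnfsf11 had them only in the 48h list.
Chordc1 promoter, chr9:18292017-18292266 (+): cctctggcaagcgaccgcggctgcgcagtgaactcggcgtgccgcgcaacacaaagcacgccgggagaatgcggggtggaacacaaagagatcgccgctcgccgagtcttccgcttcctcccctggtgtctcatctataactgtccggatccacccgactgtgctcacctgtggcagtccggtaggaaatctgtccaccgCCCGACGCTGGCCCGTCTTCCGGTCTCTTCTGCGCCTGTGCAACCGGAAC
Fam120a promoter, chr13:48968061-48968310 (-): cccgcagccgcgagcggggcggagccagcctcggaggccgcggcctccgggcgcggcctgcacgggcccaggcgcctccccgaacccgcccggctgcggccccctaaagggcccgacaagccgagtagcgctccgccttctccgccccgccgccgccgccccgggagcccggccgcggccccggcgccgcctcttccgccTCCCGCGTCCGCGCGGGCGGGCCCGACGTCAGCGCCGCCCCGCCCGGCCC
Igfbp3 promoter, chr11:7213924-7214173 (-): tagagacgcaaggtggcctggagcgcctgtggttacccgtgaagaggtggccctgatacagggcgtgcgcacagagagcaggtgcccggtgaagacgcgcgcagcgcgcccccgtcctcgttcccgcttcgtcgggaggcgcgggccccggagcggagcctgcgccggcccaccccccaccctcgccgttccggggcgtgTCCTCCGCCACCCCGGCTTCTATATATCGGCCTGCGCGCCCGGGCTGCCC
Tnfsf11 promoter, chr14:78308044-78308293 (-): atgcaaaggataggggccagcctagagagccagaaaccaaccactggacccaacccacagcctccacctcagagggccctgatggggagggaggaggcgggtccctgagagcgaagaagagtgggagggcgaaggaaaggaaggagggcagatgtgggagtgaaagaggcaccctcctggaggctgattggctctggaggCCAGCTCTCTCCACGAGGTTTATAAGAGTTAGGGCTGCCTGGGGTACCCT

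The GC content of these 250 bases was 63.6% for Chordc1, 85.2% for Fam120a, 73.2% for Igfbp3 and 60.4% for Tnfsf11. The letters TTGCNNAA, the core that C/EBP proteins bind, searched on both strands, did not occur in these 4 promoters, which draws nothing about C/EBPα. They occurred in 10.8% of 27018 RefSeq promoters from 250 bases before to 50 after the start, and in 8.67% of the 934 promoters of protein-coding genes with a pair beyond 1 Mb.

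The ends of the 2 longest pairs that all 4 lists held are shown by the first 100 bases of each fragment in GRCm38, with the HindIII site at which the fragment was cut in capitals.
Nedd1 bait fragment, chr10:92710129-92710228 (+): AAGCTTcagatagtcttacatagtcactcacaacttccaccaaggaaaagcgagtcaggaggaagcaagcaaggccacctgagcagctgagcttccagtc
Nedd1 far fragment, chr10:43541587-43541686 (+): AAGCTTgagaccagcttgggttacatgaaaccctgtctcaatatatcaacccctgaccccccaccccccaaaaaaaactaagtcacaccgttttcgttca
Phf2 bait fragment, chr13:48869904-48870003 (+): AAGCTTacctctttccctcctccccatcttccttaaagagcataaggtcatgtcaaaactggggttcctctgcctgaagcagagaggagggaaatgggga
Phf2 far fragment, chr13:14438546-14438645 (+): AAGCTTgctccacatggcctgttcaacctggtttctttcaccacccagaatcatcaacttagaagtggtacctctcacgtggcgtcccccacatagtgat

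All 107928 non-bait fragments of the lists were bounded by AAGCTT in GRCm38, the site of HindIII. Repeats took 55.3% of the far fragment of Nedd1 and 19.9% of its bait, and 14.2% and 23.3% of those of Phf2.

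The lists give no sequencing depth, and the depths to which the paper refers in its supplement were not used. Fewer distant pairs and a shallower library thus cannot be told apart here. The value of a pair in the 0h list was a CHiCAGO score, which says how far the read pairs exceed those expected at that distance, and was at least 5. The other 3 lists hold whole numbers that fell with distance, and these are taken here as read pairs, although the files do not name them. Intervals below are 95% Wilson intervals, cover counting error only and treat pairs as independent, which neighbouring fragments of one bait are not. TPM (the abundance of a transcript relative to all others in a library) keep no depth either, and in these bulk libraries fewer cells with a transcript and less of it per cell cannot be told apart. A gene is called below where its log2 fold change against 0h in log2(TPM + 0.1) passed 2 and its adjusted p passed 0.05 in a limma fit of all 12 libraries. In the RNA-seq libraries, the summed TPM of 6 Pre-B markers lay between 184 and 216 at 0h and between 15.6 and 24.2 at 48h, and that of 7 macrophage markers between 1.58 and 2.07 at 0h and between 175 and 247 at 48h, with Adgre1 below 1 TPM in every library. The markers of T cells, erythroid cells and fibroblasts summed to at most 0.11 TPM in each library, and those of granulocytes to between 1.36 and 6.20 TPM at 12h and 48h, with Mpo, Elane and Ly6g below 1 throughout, and the part of such cells in the lists was not tested.

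Distant pairs were fewest at 12h and more numerous again at 48h. Of the bait to non-bait pairs listed before induction they made up 1.86% (interval 1.79 to 1.94). The share was 1.57% (1.5 to 1.65) after 1h, 0.851% (0.798 to 0.907) after 12h and 1.17% (1.11 to 1.23) after 48h. None of these intervals overlapped, whereas all bait to non-bait pairs numbered 115102, 113100, 108144 and 123146 at the 4 time points. Outside the largest block described below, the lists held 1980, 1597, 880 and 1401 distant pairs in order of time, which ranks them alike. Of the 1444 pairs at 48h, 379 were also in the 12h list, 360 had been listed at 0h or 1h but not at 12h, and 705 were in no other list. The baits that took part numbered 783 (6.22% of the baits with a pair), 627 (4.89%), 353 (2.71%) and 480 (3.67%).

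**Figure D1:**
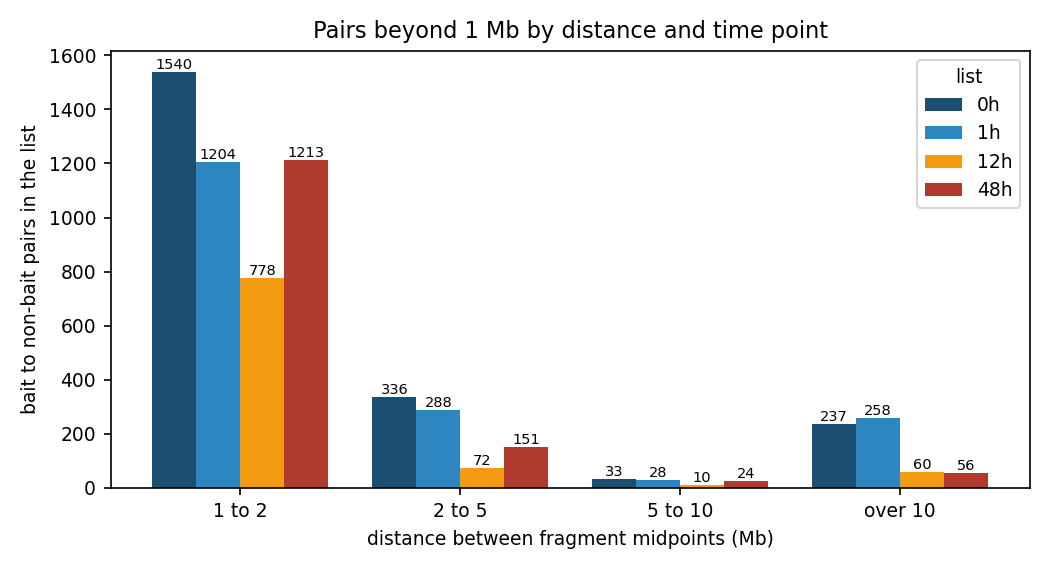
Number of bait to non-bait pairs beyond 1 Mb (vertical axis) in 4 classes of the distance between fragment midpoints (horizontal axis, Mb), 1 bar per list and no replicates. Pairs of 1 to 2 Mb numbered 1540 at 0h, 778 at 12h and 1213 at 48h, whereas those over 10 Mb were 237, 258, 60 and 56.

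From 12h to 48h the numbers rose in each distance class up to 10 Mb. Pairs of 1 to 2 Mb numbered 1540, 1204, 778 and 1213 in order of time. Pairs of 2 to 5 Mb numbered 336, 288, 72 and 151, those of 5 to 10 Mb 33, 28, 10 and 24, and those beyond 10 Mb 237, 258, 60 and 56. The class beyond 10 Mb did not rise from 12h to 48h, and 1 region of chromosome 13 held most of these pairs at 0h. The lists had median distances of 1479, 1523, 1273 and 1293 kb, and their longest pairs spanned 85.2, 96.9, 107 and 84.7 Mb.

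The limit of 1 Mb lay within a gradual decline. Between 0.9 and 1.0 Mb the lists held 440, 327, 281 and 399 pairs, and between 1.0 and 1.1 Mb 404, 341, 252 and 326. The pair nearest below the limit spanned 999862 bp and the nearest above 1000112.5 bp. Scores at 0h were not lower beyond the limit, with a median of 6.94 against 6.73 for pairs up to 1 Mb. The numbers of the later lists were lower, with medians of 6, 7 and 8 reads at 1h, 12h and 48h against 17, 14 and 15. Pairs beyond 10 Mb had a median score of 7.65 at 0h and medians of 4, 3 and 4 reads later. Only 3 reads, the lowest number, stood behind 123 distant pairs at 1h, 33 at 12h and 9 at 48h.

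A few baits held many of the pairs. Of the 1253 baits, 654 had 1 pair over the 4 lists and 88 had 10 or more, and these 88 held 1786 pairs, or 41.0% of all. The 10 leading baits, each on 1 restriction fragment, held 11.9%. The far fragments were shared less, since 2840 of 3463 met 1 bait and the most shared met 14. Distant pairs appeared on 720 baits in 1 list only, on 241 in 2, on 127 in 3 and on 165 in all 4. Chromosome 13 held 642 of the pairs (14.7%), which was 7.08% of its bait to non-bait pairs, followed by chromosome 6 with 362 (2.81%) and chromosome 3 with 322 (2.61%), and chromosomes 19 and X had the fewest with 64 and 53.

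The leading bait was the promoter of Fam120a, which encodes an RNA-binding protein, at chr13:48961798-48969648. It had 86 distant pairs, and the 4 lists held 45, 56, 6 and 19 of them. Phf2, a histone demethylase gene next to it at chr13:48869905-48876436, had 70, listed 32, 41, 27 and 16 times. From the other end of the same region, Tbce, a tubulin folding factor gene, had 43 (29, 24, 0 and 0), and the bait shared by Arid4b and Ggps1 had 42 (23, 25, 4 and 3). The bait of Ybx3, which encodes a cold shock domain protein that binds DNA and RNA, at chr6:131375361-131380865, had 64 (43, 32, 22 and 21), and its neighbour Styk1, a kinase-like receptor gene, 49 (31, 25, 21 and 12). Chordc1, whose product works with the chaperone HSP90, had 50 (32, 37, 12 and 2). A histone gene bait with Hist1h4h, Hist1h2af and Hist1h3g had 41 (24, 27, 19 and 21), Abt1 had 37 (17, 22, 10 and 6) and Bcl6, the repressor of germinal centre B cells, 37 (21, 25, 17 and 15). Fam120a led the lists of 0h and 1h, Phf2 that of 12h and Fat4, a giant cadherin gene, that of 48h with 23 pairs.

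Distant pairs were listed again less often than near ones. Over the 4 lists, 3147 distant pairs (72.2%) were listed once, 707 (16.2%) in 2 lists, 293 (6.72%) in 3 and 212 (4.86%) in all 4. For pairs up to 1 Mb these shares were 48.2%, 21.2%, 13.8% and 16.9%. Of the 2146 distant pairs at 0h, the 1h list held 30.3% (28.4 to 32.3), the 12h list 19.6% (18 to 21.4) and the 48h list 24.8% (23.1 to 26.7). The shares of the near pairs at 0h were 56.3%, 52.2% and 56.2%, and the difference at 48h was -31.4 percentage points (Newcombe interval -33.2 to -29.5). The baits were kept more often than the pairs, since 376 of the 783 baits of 0h (48.0%) had a distant pair again in the 1h list, 243 (31.0%) in the 12h list and 284 (36.3%) in the 48h list.

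Many pairs reappeared with a neighbouring far fragment. When the same bait with a far fragment within 10 kb was counted as the same pair, 54.4%, 39.3% and 40.8% of the 0h pairs were found again at 1h, 12h and 48h, against 79.5%, 75% and 74.9% of the near pairs. Read from the other side, 45.8% (42.6 to 49.0) of the 920 pairs of 12h had been listed at 0h, more than the 36.9% (34.5 to 39.4) of the 1444 pairs of 48h. The 48h list held 705 distant pairs that no other list had, the 12h list 310, the 1h list 911 and the 0h list 1221.

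The persistence of a pair went with its value. Distant pairs with a 0h score of 5 to under 6 were listed at 48h in 11.8% of cases (9.58 to 14.3), and those with a score of 12 and over in 58.4% (52.6 to 64.0). Near pairs of the same score classes were listed again in 35.9% and 93.6%. By the number of reads at 1h, the order depended on the class. With under 5 reads, 9.97% (7.29 to 13.5) of distant and 8.18% (4.84 to 13.5) of near pairs were listed at 48h. With 5 to under 8 reads the shares were 15.5% (13.2 to 18.2) and 21.9% (20.8 to 23.0). With 8 to under 12 they were 39.1% (34.7 to 43.7) and 34.6% (34.0 to 35.2), and with 12 and over 72.2% (65.1 to 78.3) and 60.3%. This last class is open and held 176 distant and 83143 near pairs, so reads within it may still differ.

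**Figure D2:**
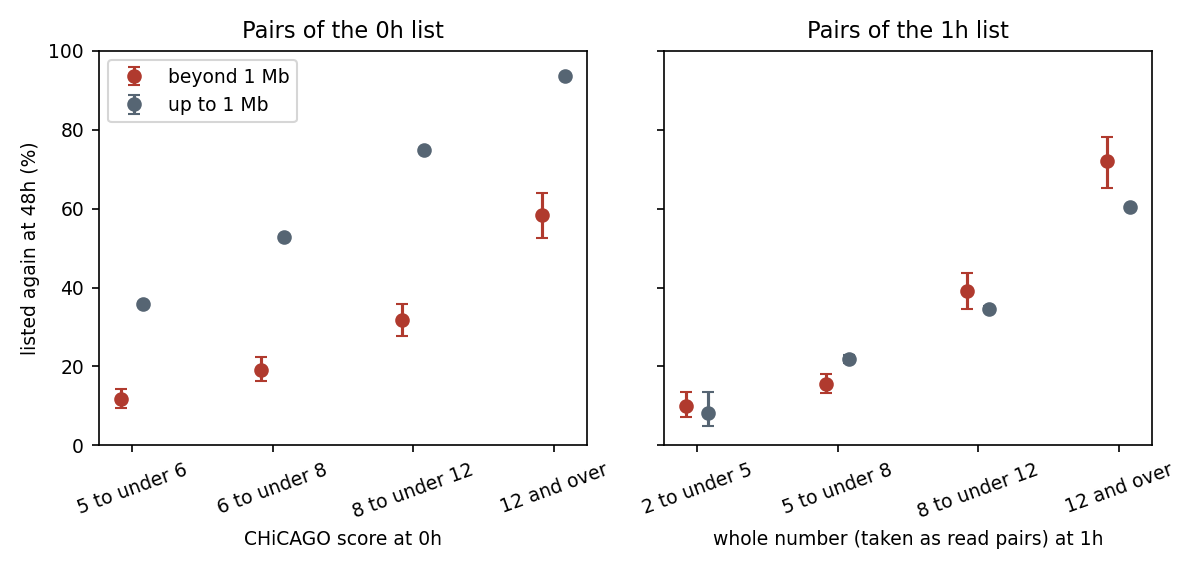
Share of pairs listed again at 48h (vertical axis, percent) by their value in the 0h list (left, CHiCAGO score) or in the 1h list (right, whole number taken as read pairs), for pairs beyond 1 Mb (red) and up to 1 Mb (grey); bars are 95% Wilson intervals. The distant pairs lay lower in every score class. By reads they lay lower at 5 to under 8 (15.5% against 21.9%) and higher in the open class of 12 and over (72.2% against 60.3%).

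The longest pair in all 4 lists joined the bait of Nedd1, a gene for a protein that brings the γ-tubulin ring to the spindle, at chr10:92710130-92723927 with chr10:43541588-43545382, over 49.2 Mb. Its score at 0h was 75.6, the highest of all distant pairs of that list, and its numbers were 11, 18 and 20 at 1h, 12h and 48h. It was the only distant pair of its bait. Nedd1 had 1.55, 2.00 and 1.69 TPM in the 0h libraries and 0.99, 0.19 and 0.84 at 48h, so the groups did not overlap, and its log2 fold change of -1.46 ± 0.47 (SE) had an adjusted p of 0.0245 (limma) but not the size of a call. The next pairs in length were those of Phf2 over 34.4 Mb, with a score of 19.4 and then 4, 3 and 5 reads, and of Selenbp2 over 24.8 Mb, with a score of 26.2 and then 7, 6 and 6 reads. All others in this set were below 6 Mb: Gm25970 at 5.90 Mb, 9230019H11Rik with Gm3318 at 4.35, Rimkla at 3.36, Bbs4 at 3.34, Slitrk3 at 2.95, Chordc1 at 2.93 and Gm10291 at 2.85. Rimkla, a gene of N-acetylaspartylglutamate synthesis listed at 0 TPM in all 12 libraries, had a score of 40.7 and then 11, 34 and 22 reads. Bbs4, which encodes a subunit of the cilium complex BBSome and stayed below 1 TPM, had a score of 29.5 and then 37, 22 and 25 reads.

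Most of the pairs lay in blocks, in which 1 or more baits met several neighbouring fragments. Pairs whose ends were both within 250 kb were joined into 813 blocks, a choice made after the values were seen and used as a description only. There were 401 blocks of 1 pair, and 207 of 5 or more that held 3415 pairs (78.3%). Of these 207, 116 had baits at both ends and 126 had pairs in all 4 lists, with 52 in 3, 24 in 2 and 5 in 1. Of the 94 blocks with 10 or more pairs, 80 had fewer pairs at 12h than at 0h, and at 48h 63 had fewer than at 0h, 28 had more and 3 as many.

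The largest block joined 2 gene clusters of chromosome 13, at chr13:13505521-14473346 and chr13:48854031-49687510 (as for all blocks, from the first to the last fragment midpoint), about 34.8 Mb apart. It held 309 pairs of 13 baits, with 166, 181, 40 and 43 in the 4 lists and 1 in all of them. Both ends saw each other: 125 pairs started from 5 baits at the left end (Lyst, Gng4, B3galnt2, Tbce and Arid4b with Ggps1) and 184 from 8 baits at the right end (Phf2, Fam120a, Wnk2, Card19, Fgd3, Omd, Ogn and Iars). The pairs from Tbce (29 and 24) and Wnk2 (15 and 8) were listed at 0h and 1h and in no later list. The median value was a score of 9.56 at 0h and 4, 3.5 and 4 reads afterwards.

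**Figure D3:**
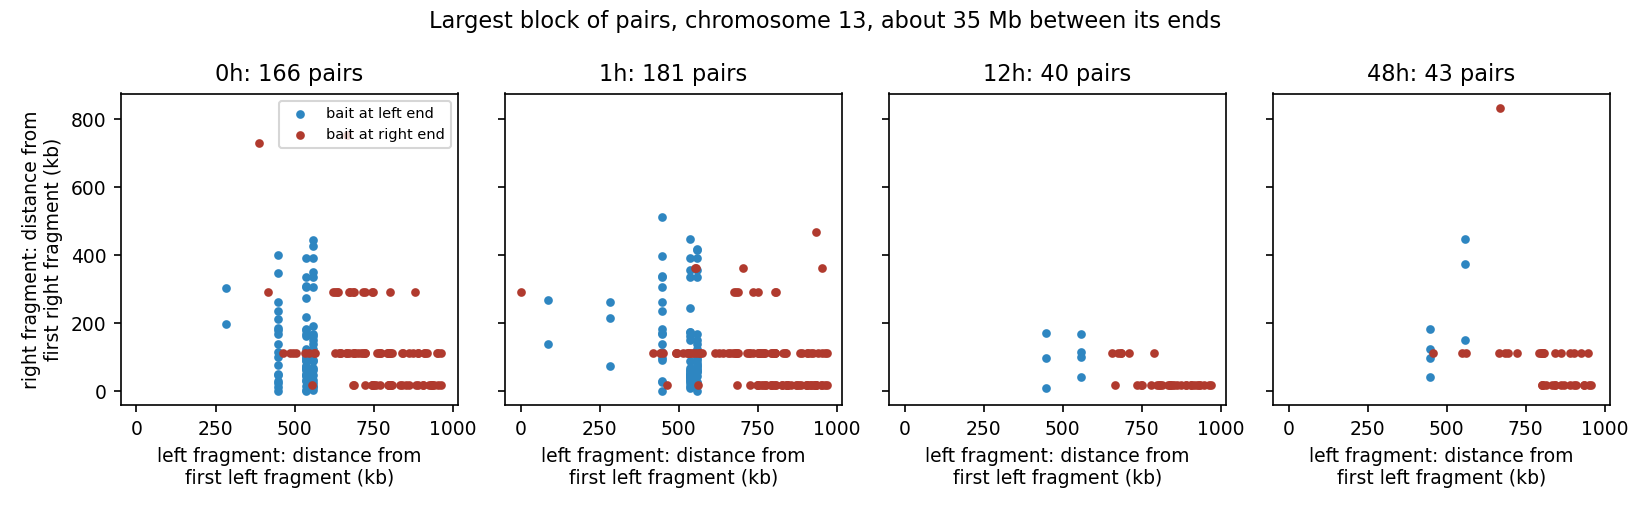
The largest block in each list, with the position of the left fragment (horizontal axis, kb from the first left fragment) and of the right fragment (vertical axis, kb from the first right fragment); each point is 1 pair, blue where the bait was at the left end and red where it was at the right. The columns and rows of points are baits, and the 4 lists held 166, 181, 40 and 43 pairs.

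Of the 20 genes of this block, the 4 time points had 8, 10, 11 and 9 above a mean of 1 TPM. None of its 14 tested genes was called at 1h. At 12h 1 was called up, beside 5.90% of all genes tested. At 48h 1 was called up and 1 down, beside 6.43% and 10.0%. Fam120a had 13.2, 11.4 and 9.97 TPM at 0h and 15.9, 16.3 and 13.2 at 1h, then 13.3, 14.7 and 15.3 at 12h and 7.18, 7.75 and 6.92 at 48h. The 48h libraries were lower than all others, by -0.65 ± 0.16 (SE) in log2 fold change against 0h (adjusted p = 0.00522, limma), which is short of a call. Tbce, which had 29 and 24 distant pairs at 0h and 1h and none later, had 1.82, 3.03 and 2.63 TPM at 0h, 9.18, 7.40 and 5.29 at 1h, 5.08, 5.02 and 3.23 at 12h and 2.62, 2.27 and 1.99 at 48h. The 1h libraries lay above all others. Wnk2, a kinase gene with the same loss, was listed at 0 in all 12 libraries. The calls were Card19, whose product dampens NF-κB signalling, up at 12h and 48h with log2 fold changes of 2.90 ± 0.51 and 2.20 ± 0.51 (adjusted p = 0.00131 and 0.00394), and Iars, the isoleucyl-tRNA synthetase gene, down at 48h with -3.20 ± 0.18 (adjusted p = 1.06e-07). Iars had 27.6, 23.1 and 19.8 TPM at 0h and 3.02, 2.32 and 2.08 at 48h, and Card19 0.91, 0.37 and 0.73 TPM at 0h and 4.49, 5.46 and 6.29 at 12h.

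The next block lay on chromosome 6 and joined killer cell lectin-like receptor genes with Ybx3 and Styk1, at chr6:129330970-129905542 and chr6:131247916-131445343, 1.79 Mb apart. It held 194 pairs of 15 baits, with 115, 90, 63 and 60 in the 4 lists and 19 in all of them. The receptors of this family sit on natural killer cells, and the 7 of them with a distant pair over all chromosomes were silent here, with 5 listed at 0 in all 12 libraries and 0.76 TPM as the highest value. Ybx3 was active, with 40.1, 36.1 and 34.8 TPM at 0h and 49.5, 42.5 and 40.5 at 1h, then 17.2, 18.3 and 16.3 at 12h and 2.49, 3.78 and 2.81 at 48h. It fell by 3.59 ± 0.17 (SE) on the log2 scale at 48h (adjusted p = 2.58e-08, limma), with no overlap between the groups, while its 2 baits went from 58 distant pairs at 0h to 29 at 48h. Magohb, which encodes a protein of the exon junction complex, was the other gene called down at 48h in this block (-2.42 ± 0.61, adjusted p = 0.00680). Olr1, the gene of a receptor for oxidised LDL, was listed at 0 in all 0h libraries and had 3.05, 1.45 and 1.62 TPM at 12h. It had 2 distant pairs, 1 at 0h and 1 at 1h.

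The third block joined both parts of the large histone gene cluster of chromosome 13, at chr13:21154063-22292386 and chr13:23298883-23755782, 1.52 Mb apart. It held 191 pairs of 26 baits, 15 at the left end and 11 at the right, with 90, 96, 52 and 59 in the 4 lists. Between the histone genes stand zinc finger, butyrophilin, olfactory and vomeronasal receptor genes, and of its 41 genes 21 were above 1 TPM at 0h and 9 at 48h. All 16 replication-dependent histone genes with a distant pair passed the filter on low values. Of these, 11 were called down at 12h and 16 at 48h, beside 1.83% and 10.0% of all genes tested, and of the 50 other histone genes tested 44 were called down at 48h.

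These 16 histone genes, which are copied into mRNA mainly while DNA is replicated, had a summed level of 1163, 1226 and 1412 TPM in the libraries of 0h and of 1564, 1296 and 1663 in those of 1h. It was 208, 285 and 358 TPM at 12h and 12.8, 21.5 and 51.4 at 48h. The means were 1267 ± 130 (SD, n = 3), 1508 ± 190, 284 ± 75.1 and 28.6 ± 20.3, and the 48h libraries lay below all others. At 48h, 59 of the pairs of the block were listed. Hist1h2af had 83.2, 84.4 and 96 TPM at 0h and 8.27, 12.1 and 11.6 at 12h. The 48h libraries list it at 0, while its bait had 21 distant pairs at 48h against 24 at 0h. Hist1h2ai had 104, 83.7 and 138 TPM at 0h and 0, 1.1 and 0 at 48h (log2 fold change -8.86 ± 0.75, adjusted p = 2.33e-06, limma), and Hist1h2ah had 192, 176 and 176 at 0h and 0, 0.05 and 5.02 at 48h (-8.74 ± 1.09, adjusted p = 4.86e-05). Gm44367 and Gm44394, annotated as miRNA genes within histone genes, carried identical TPM in all 12 libraries, with 26.9, 16.5 and 18.8 at 0h and 0 at 48h. These near-identical copies, like the histone genes themselves, share reads, so the values of single members are uncertain.

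On chromosome 11, the baits of Igfbp1, Igfbp3 and Gm11985, the first 2 of which encode binding proteins of insulin-like growth factors, met chr11:8212660-8411498, 1.1 Mb away, in 82 pairs, with 42, 52, 39 and 32 in the 4 lists and 12 in all of them. None of the 3 baits had a near pair with a non-bait fragment in any list, and near pairs between 2 baits were not counted. The 3 genes were listed at 0 in all libraries. Fat4 on chromosome 3, also at 0, met chr3:40333556-40532852 and the block held 21, 19, 16 and 20 pairs. On chromosome 16, Bcl6 and Tprg met each other's region in 27, 29, 20 and 20 pairs, 12 of them in all 4 lists. Bcl6 itself had 0.97, 0.72 and 0.84 TPM at 0h, 0.05, 0.20 and 0.15 at 12h and 1.21, 1.02 and 0.97 at 48h, and it fell by 2.07 ± 0.34 on the log2 scale at 12h (adjusted p = 0.000914, limma), whereas the value at 48h was 0.31 ± 0.34 (adjusted p = 0.505).

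The steadiest block was that of chromosome 8, where Otud4, a deubiquitinase gene, and a bait without a gene of the table at chr8:80719002-80723798 met each other's region 1.05 Mb away. It had 27, 27, 26 and 21 pairs, 20 of its 33 pairs were in all 4 lists, and its median score at 0h was 21.4, the highest of the 20 largest blocks. Otud4 was active at all times, with 8.12, 5.92 and 5.90 TPM at 0h and 3.26, 3.29 and 3.18 at 48h. On chromosome 15, Rpl37, a ribosomal protein gene, led a block of 92 pairs over 1.1 Mb (43, 59, 34 and 46). Rpl37 had 114, 123 and 81.6 TPM at 0h and 25.2, 34.7 and 38.7 at 48h, or -1.69 ± 0.22 (SE) on the log2 scale (adjusted p = 5.76e-05, limma), under the size of a call. On chromosome 5, Paqr3 faced Prdm8 and Fgf5 in 30, 24, 15 and 23 pairs. Prdm8, which encodes a histone methyltransferase-like repressor, was called down at 12h and 48h (-2.81 ± 0.43 and -2.13 ± 0.43, adjusted p = 0.00051 and 0.00164), from 1.04, 1.26 and 0.85 TPM at 0h to 0.16, 0.17 and 0.15 at 48h.

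Some blocks had most of their pairs in the 48h list. On chromosome 14, Enox1 at the left end and Tnfsf11, the gene of RANK ligand, at the right met over 1.1 Mb in 1, 1, 3 and 32 pairs. Tnfsf11 and Enox1 each had 9 distant pairs at 48h and none at 0h, and both genes were listed at 0 in all 12 libraries. On chromosome 2, 18 baits of a cluster of olfactory receptor genes met over 1.25 Mb in 16, 14, 13 and 45 pairs. Olfr1176 led this block with 2, 6, 5 and 14, and of the 19 genes of the block 12 were at 0 in all libraries and none was above 1 TPM. Pairs of Mir872, Ift74, Lrrc19, Tek and Eqtn on chromosome 4 with chr4:95848730-96034752 numbered 10, 16, 12 and 28.

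Other blocks had no pair at 0h and 1h. On chromosome 7, 18 pairs between chr7:116334918-116393312 and the baits of Arl6ip1, which shapes the endoplasmic reticulum, and Gm25683 were listed at 48h and none before. Arl6ip1 had 15.8, 10.9 and 10.7 TPM at 0h and 5.99, 6.92 and 6.70 at 48h (log2 fold change -0.90 ± 0.27, adjusted p = 0.0185, limma), less than a call. On chromosome 17, Birc6, the gene of a large ubiquitin ligase that restrains apoptosis, had 10 pairs of this block at 48h, 4.17 Mb long, and none in the other lists. Birc6 had 7.70, 7.86 and 5.77 TPM at 0h and 9.10, 11.4 and 8.59 at 48h (0.45 ± 0.19, adjusted p = 0.0796). Akr1e1 on chromosome 13, an aldo-keto reductase gene below 0.1 TPM in every library, had 0, 0, 1 and 11.

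**Figure D4:**
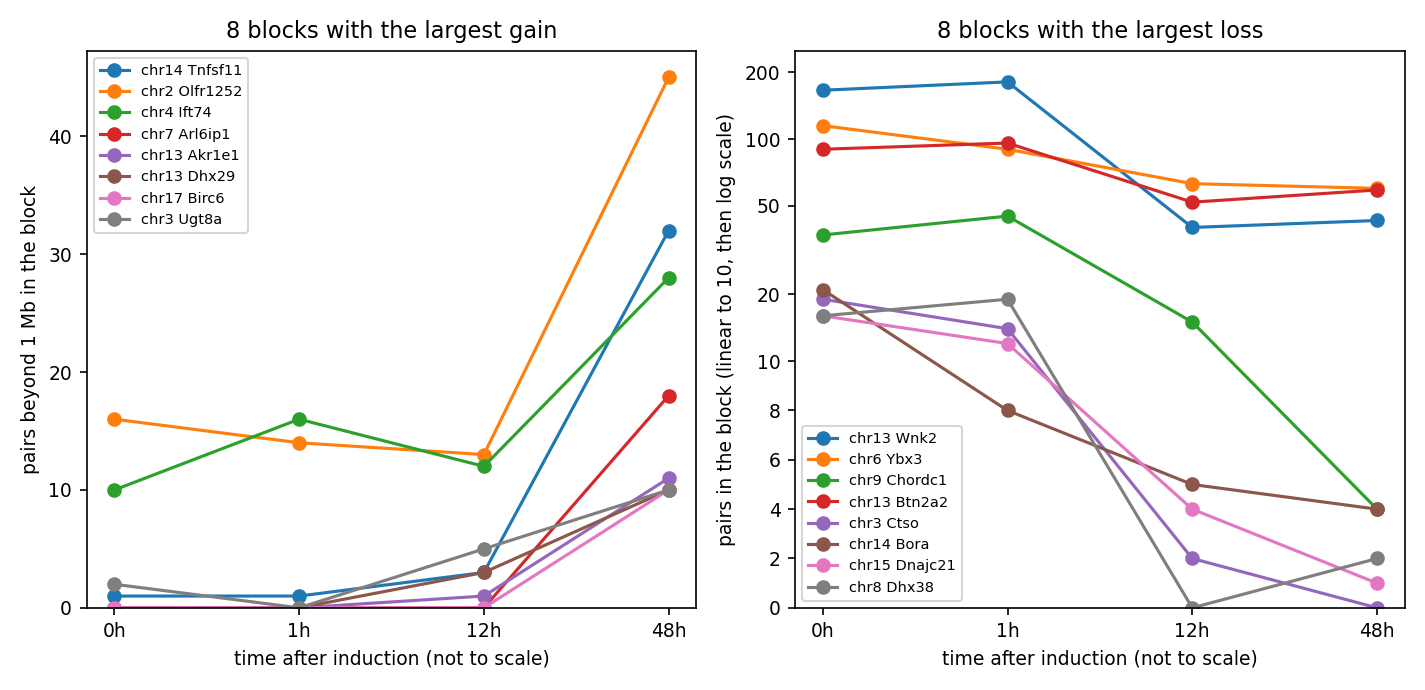
Pairs per block (vertical axis) at each time point (horizontal axis, not to scale) for the 8 blocks with the largest gain (left) and the 8 with the largest loss (right) in number from 0h to 48h, each named by one of its genes; the right axis is linear up to 10 and logarithmic above. The block of Tnfsf11 went from 1 pair to 32 and that of Chordc1 from 37 to 4.

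Other blocks were lost. On chromosome 9, Chordc1 met the region of Med17 and Cep295 over 2.93 Mb in 37, 45, 15 and 4 pairs. Chordc1 had 5.90, 7.12 and 5.53 TPM before induction, 11.3, 14.5 and 11 at 1h, 6.65, 7.64 and 9.52 at 12h, and 7.80, 8.14 and 3.25 at the end. The libraries of 0h and 48h overlapped and differed by -0.05 ± 0.31 on the log2 scale (adjusted p = 0.924, limma), so no difference was detectable between these times, at which the block had 37 and 4 pairs. On chromosome 3, Ctso, a cathepsin gene, and Gm9989 met the region of Gria2 in 19, 14, 2 and 0 pairs, and Ctso had 0.78, 1.03 and 1.28 TPM at 0h and 1.68, 1.00 and 1.40 at 48h (0.37 ± 0.34, adjusted p = 0.420).

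On chromosome 14, Bora, which encodes an activator of the mitotic kinase Aurora A, and Dis3, the gene of an RNA exosome nuclease, met a region 2.00 Mb away in 21, 8, 5 and 4 pairs. Bora had 4.46, 3.17 and 2.97 TPM at 0h and 0.08, 0.50 and 0.29 at 48h and was called down (-3.36 ± 0.41, adjusted p = 3.88e-05, limma). Dis3 was called down as well (-2.61 ± 0.27, adjusted p = 1.32e-05). On chromosome 8, the regions of Psmd7 and of Dhx38, Dhodh and Hp met over 1.98 Mb in 16, 19, 0 and 2 pairs. Dhodh, an enzyme gene of pyrimidine synthesis, was called down at 48h (-2.42 ± 0.29, adjusted p = 3.81e-05). Haptoglobin (Hp), a plasma protein gene of liver and myeloid cells, was listed at 0 at 0h and rose to 38.7, 42.6 and 55.4 TPM at 12h and 32.7, 31.7 and 49.7 at 48h. Hp had 1 distant pair, listed at 1h.

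A pair of long blocks was also lost. Pairs between the region of Ugt1a1 and the start of chromosome 1, over 84.9 Mb, numbered 14, 20, 7 and 1, with median values of 7.42 in score at 0h and 3, 3 and 4 reads later. Pairs of Rad51c and small nuclear RNA genes of chromosome 11 with Rnu2-10, over 14.2 Mb, numbered 11, 22, 1 and 0. The Rnu3b and Rnu2 genes are multicopy, and whether reads of one copy were placed at another was not tested.

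Baits can also be ends of pairs between 2 baits, which the rule left out. Of the 20 largest blocks, 16 also held pairs between 2 baits. The block of Fam120a and Phf2 had 12, 9, 5 and 3 of them at 0h, 1h, 12h and 48h, that of Ybx3 29, 27, 16 and 16, that of the histone genes 22, 19, 16 and 29, that of the olfactory receptors 15, 9, 16 and 18, and that of Chordc1 7, 6, 6 and 3. The histone block thus had more of them at 48h than at 0h, unlike its pairs with other fragments.

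Genes with a distant pair were more often above 1 TPM than genes with near pairs only at 0h and 1h. At 12h and 48h they were less often so when all were counted, but not when only those with near pairs as well were counted. At 0h, 1053 genes had a start site on a bait with a distant pair, and 43.5% ± 1.28 (SD, n = 3) were above 1 TPM. The shares were 36.8% ± 0.922 of 15563 genes with near pairs only and 18.3% ± 0.473 of 6577 genes with no bait to non-bait pair. At 1h the shares were 46.7% ± 0.585 of 854 genes, 39.8% ± 0.487 and 23.7% ± 0.389. At 12h they were 33.6% ± 0.871 of 478 genes, 37.7% ± 1.64 and 22.6% ± 0.937, and at 48h 24.5% ± 1.29 of 621 genes, 30.3% ± 1.69 and 19.2% ± 1.24. The difference between the first 2 groups was 6.70 and 6.97 percentage points at 0h and 1h and -4.08 and -5.72 at 12h and 48h. The libraries of the first 2 groups did not overlap at any time point. The second group has a near pair by its definition, whereas 261, 234, 139 and 185 genes of the first had none. Without these, in a count added after the values were seen, the shares of the first group were 51.8% ± 1.28, 54.9% ± 0.812, 40.5% ± 0.614 and 30.8% ± 1.75 at the 4 time points. The difference was then 2.82 percentage points at 12h and 0.56 at 48h, where the libraries of both groups overlapped. Genes are not replicates and each time point had 1 list, so no test was made of these differences.

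**Figure D5:**
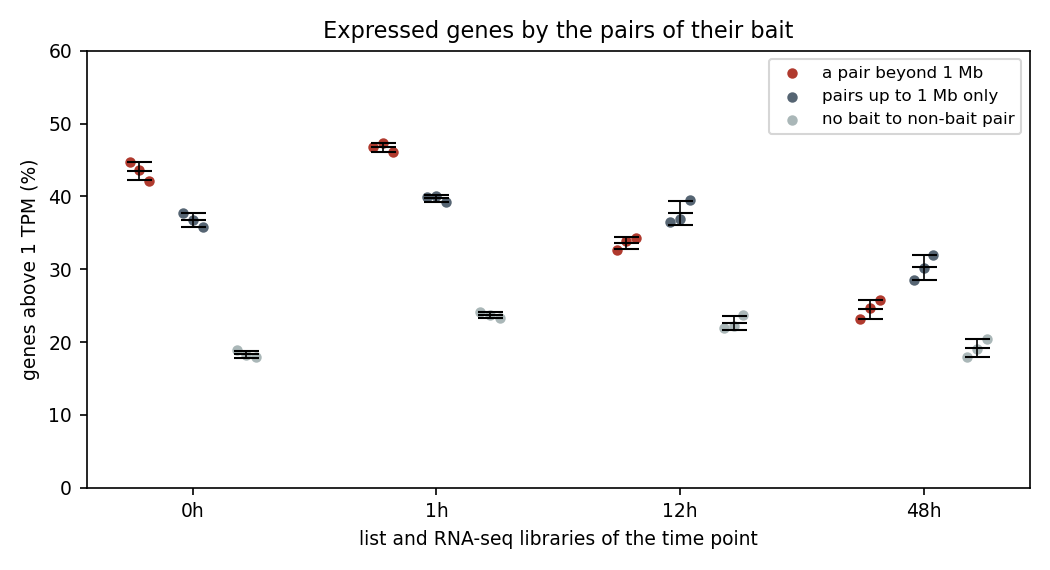
Share of genes above 1 TPM (vertical axis, percent) at each time point (horizontal axis) for genes whose bait had a pair beyond 1 Mb (red), pairs up to 1 Mb only (dark grey) or no bait to non-bait pair (light grey); points are the 3 libraries and bars the mean ± SD. The red points lie above the dark grey ones at 0h (43.5% against 36.8%) and below them at 48h (24.5% against 30.3%), where genes with distant pairs and no near ones are among the red.

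The number of near pairs of a bait goes with expression, so the shares were also read within classes of it. At 0h, genes with a distant pair lay above the others in each class, with 42.4% against 30.7% for 1 to 4 near pairs, 51.4% against 37.8% for 5 to 9, 55.7% against 43.8% for 10 to 19 and 60.3% against 47.5% for 20 and more. They also did so in each class at 1h. At 12h they lay above for 5 to 9 (47.1% ± 2.78 against 39.6% ± 1.89) and for 20 and more (60.9% ± 2.94 against 48.6% ± 1.71), and below for 10 to 19 (37.0% ± 1.80 against 42.9% ± 1.94). For 1 to 4 the shares differed by less than their spread (31.5% ± 1.03 against 32.3% ± 1.42). At 48h they lay above for 20 and more (50.4% ± 1.37 against 40.1% ± 1.85). The shares were 21.9% ± 2.59 against 25.3% ± 1.57 for 1 to 4, 30.1% ± 1.00 against 31.0% ± 1.89 for 5 to 9 and 28.9% ± 3.95 against 34.5% ± 1.70 for 10 to 19. Of the genes whose bait had distant pairs and no near ones, 18.4% of 261 were above 1 TPM at 0h and 24.9% of 234 at 1h. The shares were 16.8% of 139 at 12h and 9.73% of 185 at 48h. For genes with no bait to non-bait pair they were 18.3%, 23.7%, 22.6% and 19.2%, so both groups were near each other at 0h and 1h.

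The same genes were followed through time. The 1053 genes with a distant pair at 0h were above 1 TPM in 43.5%, 48.0%, 43.1% and 32.8% at 0h, 1h, 12h and 48h, and the 621 with one at 48h in 33.0%, 36.3%, 32.5% and 24.5%. So the genes of the 48h list had been the less expressed ones at 0h. In the 28 blocks of 10 or more pairs that grew from 0h to 48h (220 pairs to 431), 21.6% ± 2.45 of 131 genes were above 1 TPM at 0h and 17.6% ± 0.763 at 48h. In the 63 that shrank (1133 pairs to 487), 39.8% ± 1.22 of 410 genes were above 1 TPM at 0h and 27.8% ± 2.24 at 48h. These 63 include the histone block, of whose 41 genes 21 were above 1 TPM at 0h and 9 at 48h. All 1669 genes with a distant pair in any list went from 41.2% ± 1.18 at 0h to 32.4% ± 1.65 at 48h. Whether the change in pairs and that in expression are linked was not tested.

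For single genes, each time point was compared with 0h, with the Benjamini-Hochberg adjustment of limma over the 16415 genes tested. Of the 1669 genes with a distant pair in any list, 982 passed the filter of a mean of 0.1 TPM. At 1h, 27 of them were called up (2.75%) and 4 down (0.407%), beside 3.59% and 0.378% of all genes tested. Without the third 1h library 2 were down (0.205%), beside 0.443%. At 12h, 38 were up (3.87%) and 30 down (3.05%), beside 5.90% and 1.83%. Without the genes of the histone block 19 were down (1.99%) at 12h. Without the first 12h library 17 were down (1.73%), beside 1.58%. At 48h, 34 were up (3.46%) and 156 down (15.9%), beside 6.43% and 10.0%, and without the histone block 14.1% were down. Of the genes with pairs up to 1 Mb and no distant pair, 11.7% were called down at 48h. The median log2 fold change over all genes was 0.59, 0.34 and -0.18 at the 3 time points and 0.51, 0.05 and -0.55 over the genes with a distant pair. Median-of-ratios scaling moved the medians of all genes to 0.06, 0.04 and 0.06, so fold changes here are to be read against these medians. With that scaling 11 genes with a distant pair were called up and 7 down at 1h, 24 and 44 at 12h, and 55 and 128 at 48h (13.1% down, beside 7.95%).

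Genes that had gained, lost or kept distant pairs were set beside all genes tested, of which 6.43% were called up and 10.0% down at 48h. Of the 113 tested genes with a distant pair at 48h and not at 0h, 8 were called up and 8 down (7.08% each), the share up being near that of all genes. Of the 444 with a distant pair at 0h and not at 48h, 9 were up (2.03%) and 71 down (16%). Of the 197 with one at both times, 7 were up (3.55%) and 46 down (23.4%). The class of both times held 8 of the 16 histone genes, and that of 0h alone held 3. Without the histone genes, 20.1% and 15.4% of these classes were called down, and without all genes of the histone block 19.1% and 15.3%. The difference between the classes was not tested.

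At 1h, the largest decreases were Sox4 and Foxo1, transcription factor genes of early B cell development. Sox4 had 3.54, 3.05 and 2.35 TPM at 0h and 0.30, 0.38 and 0.26 at 1h (log2 fold change -2.89 ± 0.31, adjusted p = 0.000126, limma), with 1 distant pair, listed at 0h. Foxo1 had 4.15, 2.88 and 2.80 TPM at 0h and 0.78, 0.82 and 0.57 at 1h (-2.03 ± 0.23, adjusted p = 0.000207), and its bait had 2 distant pairs, both listed at 12h. Without the first 0h library the fold change of Foxo1 was -1.85 and without the third 1h library -1.89, which is under the size of a call. Lrrk2, a kinase gene active in myeloid cells, had 1.83, 1.35 and 1.04 TPM at 0h and 12.6, 12.9 and 10.6 at 1h (3.04 ± 0.21, adjusted p = 5.83e-06), and 2, 3, 2 and 2 distant pairs in the 4 lists. Hmox1, the heme oxygenase gene, rose from 1.25, 1.11 and 1.02 TPM to 8.08, 7.24 and 6.69 (2.60 ± 0.24, adjusted p = 3.97e-05), with 1 distant pair, listed at 12h. The small RNA genes Gm23451 and Gm23968 were listed at 0 at 0h and had at most 5.44 TPM at 1h, and Rasl10a, a gene of the Ras family, rose from at most 0.15 TPM to 4.03, 2.36 and 2.64.

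At 12h, the largest increases were those of Hp and Olr1, described above, followed by Vps13c and Asph. Vps13c, a lipid transfer protein gene, rose from 1.40, 1.71 and 0.91 TPM at 0h to 19.2, 17.5 and 22.4 (log2 fold change 3.81 ± 0.23, adjusted p = 4.95e-07, limma), with 1 distant pair in each later list. Among the decreases, Lig1, the DNA ligase of replication, went from 17.4, 17.7 and 15.2 TPM to 1.34, 0.97 and 2.23 (-3.46 ± 0.35, adjusted p = 2.64e-05), with 1 distant pair, listed at 12h. Car2, a carbonic anhydrase gene, fell from 6.69, 6.46 and 6.93 TPM to 0.40, 0.61 and 1.15 (-3.15 ± 0.28, adjusted p = 1.09e-05) while its distant pairs were 2, 2, 2 and 6. Gimap4, a lymphocyte GTPase gene, fell by 3.24 ± 0.35 on the log2 scale, and Gm20402, antisense to Foxo1 and on its bait, fell by 3.98 ± 0.74. The counting is not stated to use strand, so reads of Gm20402 and Foxo1 cannot be told apart.

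At 48h, Asph, a hydroxylase gene of the endoplasmic reticulum, rose from 1.84, 0.57 and 0.66 TPM to 23.9, 31.3 and 30.9 (log2 fold change 4.84 ± 0.34, adjusted p = 5.56e-07, limma), with 1 distant pair, listed at 1h. Plxdc2, a membrane receptor gene, was listed at 0 at 0h and had 15.8, 18 and 12.9 TPM at 48h. Rassf4 rose from 1.57, 0.91 and 0.40 TPM to 13.8, 18 and 17.1 (4.11 ± 0.46, adjusted p = 1.98e-05), and its 2 distant pairs were listed at 48h only. Ifih1, the sensor gene of viral RNA, rose from at most 0.04 TPM to 1.90, 3.43 and 2.03 (4.46 ± 0.42, adjusted p = 5.55e-06), with 1 pair at 0h. Mad2l1, a gene of the spindle checkpoint that was chosen after its values were seen, had 16, 10, 6 and 17 distant pairs at the 4 time points, 8 of them at both 0h and 48h. Its TPM fell from 5.10, 7.64 and 4.48 at 0h to 0.14, 0.06 and 0.09 at 48h (-4.87 ± 0.30, adjusted p = 2.15e-07). None of the genes with the largest increases had more than 7 distant pairs.

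Of 25 known Pre-B genes on a bait, Ebf1 and Foxo1 had a distant pair (8%), near the share of 7.20% over all 23193 genes on a bait. Ebf1, a factor that sets up the B cell fate, had 2 pairs, 1 at 0h and 1 at 1h, and 18.5, 15.6 and 13.1 TPM at 0h and 2.09, 2.56 and 1.93 at 48h (log2 fold change -2.78 ± 0.23, adjusted p = 1.68e-06, limma). Of 10 cohesin and CTCF genes on a bait none had a distant pair.

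Among gene families, 14 of 177 developmental genes (7.91%) and 13 of 168 adhesion and neuronal genes (7.74%) had a distant pair. So did 53 of 772 olfactory and vomeronasal receptors (6.87%) and 17 of 286 zinc finger genes (5.94%), all near the share of 7.20%. The developmental genes were taken by the start of their symbols, such as Hox, Sox, Fox, Dlx or Wnt. Among the 14 were Dlx6os2 and Sox6os, named as opposite-strand genes, and Foxo1 and Sox4, which were active at 0h. Dlx5 had 4, 5, 4 and 3 pairs at the 4 time points, Hoxa3 and Hoxa7 4, 1, 2 and 3 each, and Sox6 3, 2, 1 and 4, and none of them exceeded 0.44 TPM in a library. Cntn5, a neuronal adhesion gene at 0 throughout, had 10, 5, 3 and 15, Slitrk3 6, 4, 2 and 2, Gabrr3 1, 2, 4 and 5, Pcdh20 3, 3, 2 and 5, and Pcdh9 4, 1, 1 and 4. Of the receptors, Olfr1178 had 8 pairs, Olfr32 6, Olfr368 4 and Olfr248 3 over the 4 lists. Of all 53, 36 were at 0 in all libraries and the highest value was 0.96 TPM. Of the zinc finger genes, Zfp322a had 8, 7, 4 and 1 pairs, Zfp184 7, 4, 2 and 7 and Zfp787 5, 5, 2 and 2. Of the members tested in the 4 families, 4 developmental genes gave 2 calls down at 1h (Sox4 and Foxo1), 2 down at 12h and 1 down at 48h, beside 0.378%, 1.83% and 10.0% of all genes tested. The 15 zinc finger genes gave 1 call up at 12h and 1 down at 48h, beside 5.90% and 10.0%, which is near the background.

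The far fragments differed little from others in sequence and more in place. Their median length was 2.48 kb against 2.56 kb for the 104465 fragments with pairs up to 1 Mb only, their median GC content 41.3% against 43.6% and their median repeat content 22.1% against 23.4%. They overlapped a protein-coding gene in 55.4% against 63.1%, and lay at a median of 8.53 kb from the nearest start site against 7.66 kb. The share in genes was 55.1% and 54.8% at 0h and 1h and 47.8% and 48.6% at 12h and 48h, while that of the near fragments stayed between 63.5% and 64.0%. Their median distance to a start site was 7.67, 7.5, 11 and 11.2 kb at the 4 time points. Of the 193 far fragments listed with 1 bait at all 4 time points, 39.4% overlapped a protein-coding gene, against 58.3% of the 2444 listed at 1 time point.

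The CTCF core consensus was found in 8.29% (5.17 to 13.0) of the 193 fragments with a pair in all 4 lists, and in 3.27% (2.64 to 4.06), 2.92% and 3.70% of those in at most 1, 2 and 3 lists. Their median lengths were 2.96, 2.44, 2.40 and 2.62 kb, so the fragments listed at all 4 time points were longer as well. In 1 kb windows at the fragment centre it was found in 0.953% of far and 1.08% of near fragments and in 0.517% of windows placed every 20 kb along the genome. In such windows it was found in 1.55% of the 193 fragments, which is few of them, and in 0.859% of the 2444 in at most 1 list. Among far fragments with 1 match, the core pointed toward the bait in 88 of 120 (73.3%, 64.8 to 80.4), and in 14 of 16 (87.5%, 64.0 to 96.5) where the pair was in all 4 lists. For fragments 500 kb to 1 Mb from the bait this share was 75.9% (72.2 to 79.2), for 100 to 500 kb 68.1% (66.5 to 69.6) and up to 100 kb 64.6% (62.2 to 67.0). Distant pairs thus did not differ from those of 500 kb to 1 Mb beyond counting error. In the windows shown above, this is the orientation of the cores beside Bcl6, Fat4, Igfbp3, Rpl37 and Mad2l1. The letters TTGCNNAA were in 38.5% of the 1 kb windows of far fragments, 35.1% of those of near fragments and 38.8% of the genome windows.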

How the data were processed

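RNA-seq (3 replicates at each of 4 time points) and Promoter Capture Hi-C (2) of C10 cells were analysed, and the Hi-C libraries were not used. Restriction fragments were cut with HindIII. The authors mapped and filtered PCHi-C reads with HiCUP (mm10), merged both replicates and called pairs with CHiCAGO at a score of 5 or more. The deposited 0h list gives that score. The lists of 1h, 12h and 48h give whole-number counts as deposited, taken as read pairs although no unit is named, and depth is not given in them. The deposited TPM values came from the authors' RSEM after Trim Galore (0.6.2) and HISAT2 (2.1.0), per the labels.

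A bait was the first fragment of a row in any list, and both directions of a pair were joined. Genes of the TPM table were placed on baits by the start sites of GENCODE M21. TPM were compared with 0h by limma (3.58.1, R 4.3.3) on log2(TPM + 0.1) in 1 fit of all 12 libraries, after a filter of a mean of 0.1 TPM, with Benjamini-Hochberg adjustment over 16415 genes of 55450, and no replicate block. P-values set a difference against the spread between these samples, which are replicates of 1 cell line. The fit recovered known changes in simulated data. Pairs, with 1 list per time point, had Wilson and Newcombe intervals (Python 3.11.15, scipy 1.17.1). The members, lists and tests were chosen with earlier results of these data known. Named genes were those of the 10 leading baits, of the 10 longest pairs in all 4 lists (1 per bait) and of the leading bait of each list, the 5 called genes with the largest change in each direction at each time (mean of at least 1 TPM, no overlap between libraries), and up to 5 genes per gene list whose bait had distant pairs at all 4 time points. Other genes were named for their blocks after their values were seen. The list of macrophage genes is not reported here. Alternatives covered the distance limit, the score, the pairing rule, gene and TPM filters, scaling, pseudocount and left-out libraries.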

Additional observations from a re-analysis of the deposited data

Results flagged for a closer look

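Pairs between 2 baits more than 1 Mb apart, which the comparisons above do not use, numbered 1200 over the 4 lists, with 675, 542, 272 and 276 in the lists of 0h, 1h, 12h and 48h. Of these, 53 were in all 4 lists and 837 in 1. They lay on 1400 baits, of which 587 also had a distant pair with a non-bait fragment.

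Pairs between chromosomes numbered 1528, with 880, 855, 679 and 618 in the 4 lists, 305 in all of them and 803 in 1. No list comes with a control library, so neither number could be set against a background. Both were singled out because they are signal in data outside the main measurement.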

How the results depend on the processing

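Apart from fold changes of named genes, 233 values were recomputed under alternatives, of which 150 kept their size, 81 moved and 2 reversed. A count kept its size where it stayed within a set factor of the reported one, whatever its spread. A share of pairs did so within its counting error. A share of genes above 1 TPM, or its difference between groups, did so within the spread between libraries. With a limit of 2 Mb in place of 1 Mb, the 4 lists held 606, 574, 142 and 231 pairs (0.526%, 0.508%, 0.131% and 0.188%) on 223, 195, 56 and 85 baits. Of the 0h pairs, 27.2%, 10.2% and 14.2% were then in the 3 later lists, and 20 pairs were in all lists. Genes of these pairs were above 1 TPM in 49.7% at 0h and 52.4% at 1h, which is 12.7 and 12.5 points above genes with nearer pairs only. With pairs between 2 baits included, the baits numbered 1341, 1110, 660 and 726, and the share of distant pairs was 2.05%, 1.69% and 0.910% at the first 3 time points. A score of 10 or more left 450 pairs at 0h. Within 10 kb, 54.4%, 39.3% and 40.8% of the 0h pairs were found again and 593 pairs in all 4 lists. Measuring the gap between fragment ends and taking baits from the same list only were run for the numbers of pairs and baits and the share of distant pairs, and moved none of them.

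The share of genes above 1 TPM moved with the choice of genes. Among genes with near pairs as well, a choice added after seeing the data, it was 51.8%, 54.9%, 40.5% and 30.8%, and the difference from genes with near pairs only was 15.0 and 15.2 points at 0h and 1h and turned to 2.82 and 0.56 at 12h and 48h. The other choices kept the direction of the difference. Among protein-coding genes it was 57.0%, 61.5%, 46.5% and 34.4%, with differences from genes with near pairs only of 7.68, 8.78 and -6.40 points at 0h, 1h and 48h. For baits with 1 gene it was 44.8% at 1h and 28.6% at 12h, with differences of 5.86, 4.20, -10.5 and -8.57 points. Scaled by median of ratios, it came to 45.0%, 43.1%, 32.3% and 28.7%, with differences of 7.17 and 6.30 points at 0h and 1h.

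Calls by limma moved with the size threshold and with the treatment of low values. With a pseudocount of 1, 7 genes with a distant pair were up (0.713%) and 0 down at 1h, beside 0.469% and 0.0609% of all genes tested. Of those lower at 1h, 24 had an unadjusted p under 0.05 and 18 an adjusted p under 0.05 (limma), but none the size of a call. At 12h 16 were up (1.63%) and 13 down (1.32%), beside 1.82% and 0.621%. At 48h 15 were up (1.53%) and 66 down (6.72%), beside 2.48% and 3.78%. A pseudocount of 0.01 gave 7 down at 1h. A mean of at least 1 TPM gave 17 up and 1 down at 1h. Scaling gave 11 up and 7 down at 1h, 24 up at 12h and 55 up at 48h. A log2 threshold of 1 gave 138 up (14.1%) and 14 down (1.43%) at 1h, beside 16.7% and 1.08%. It gave 124 (12.6%) and 94 (9.57%) at 12h, beside 17.7% and 5.75%. At 48h it gave 97 (9.88%) and 333 (33.9%), beside 13.5% and 23.1%. Counting only genes with a distant pair at 0h or the later time gave 2 down at 1h (0.235%, beside 0.378%) and 25 up at 12h (3.51%, beside 5.90%). Leaving out the histone block gave 19 down at 12h (1.99%, beside 1.83%). Leaving out 1 library at a time gave 24 to 33 up (2.46 to 3.37%) and 2 to 6 down (0.205 to 0.614%) at 1h. Of all genes, 3.09 to 4.35% were then up and 0.295 to 0.443% down. At 12h 30 to 41 were up (3.05 to 4.18%) and 17 to 34 down (1.73 to 3.47%), beside 5.28 to 6.27% and 1.58 to 2.14%. At 48h 32 to 40 were up (3.26 to 4.09%) and 143 to 169 down (14.6 to 17.2%), beside 6.13 to 6.67% and 9.19 to 11.6%. Of 508 fold changes of the 27 named and called values, 497 stayed calls, 11 were no longer calls and 0 reversed. These 11 were 8 with a pseudocount of 1 (among them Sox4, Foxo1, Hmox1, Olr1 and Ifih1), Foxo1 without 1 library (-1.85 and -1.89) and Hist1h2ai at 12h with a pseudocount of 0.01. The cause was not tested.

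The replicate numbers are not known to pair libraries. Deviations from the group means correlated between libraries of the same number by -0.012 to 0.257 (median 0.073, 7 of 18 above 0.1), and between others by -0.181 to 0.11. Only 5 of 12 libraries always correlated best with their own number. A replicate block gave 28 up (2.85%) and 5 down (0.509%) at 1h, beside 3.64% and 0.384% of all genes tested. At 12h it gave 39 (3.97%) and 30 (3.05%), beside 6.03% and 1.83%. At 48h it gave 34 (3.46%) and 158 (16.1%), beside 6.43% and 10.1%, and it changed no call of a named gene.

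Linkage of blocks over 100 kb or 500 kb, chosen after seeing the data like the blocks, gave 1016 or 715 blocks, with 297 or 309 pairs in the largest. The lists hold 1 set of pairs per time point and no depth, so no difference between lists has a replicate error. Many distant pairs rest on few reads.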
